A study of Mus musculus with 2 samples.

Results

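The cells described here are type 1 conventional dendritic cells (cDC1) found by single-cell RNA sequencing among CD45+ cells that had been sorted out of B16-hAXL tumours grown in mice. Of 10709 barcodes kept from both libraries, 361 were cDC1 members, 252 in the PBS library and 109 in the 6C5 library. A barcode was kept with at least 2000 UMIs (unique molecular identifiers, each counting 1 captured transcript) and at most 10% of them from mitochondrially encoded genes. A kept barcode was a member with at least 2 UMIs of Xcr1 and Clec9a together and at least 1 of Naaa. It also had at most 2 UMIs of the mature dendritic cell genes Fscn1 and Ccr7 together, C1qa, C1qb and C1qc under 0.4% of its UMIs, at most 1 UMI of the T cell genes Cd3d, Cd3e and Cd3g together and at most 1 of Siglech. Members were thus chosen by the UMI counts of these genes, so the levels of those genes, and the shares of cells that follow from them, are given as a description.

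All mice carried tumours of B16-hAXL cells, a form of the B16 mouse melanoma line, and all had the genotype label WT. The control group had received PBS and the other group 200 µg of the anti-AXL antibody 6C5, in both cases by intraperitoneal injection, and both samples were labelled day 15. Each group was 1 library, and the strain, age and number of mice behind a library, and the dosing schedule, are not given in the sources used here. There is therefore no replicate check and no test between the groups: the 95% intervals below cover counting error only.

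cDC1 take up material from dead cells and present its antigens on MHC class I to CD8 T cells, which is called cross-presentation. They depend on the transcription factors Irf8 and Batf3, carry the chemokine receptor Xcr1 and the dead-cell receptor Clec9a, and in tumours are known as a source of IL-12 and of the T cell attractants Cxcl9 and Cxcl10. Axl, with Tyro3 and Mertk, forms the TAM family of receptor kinases, which bind the bridging ligand Gas6, help phagocytes take up dying cells and dampen dendritic cell activation.

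In all, 78923567 UMIs came from PBS and 85921419 from 6C5, with 4659 and 6050 kept barcodes whose medians were 9286 and 6818.5 UMIs. The members themselves were of similar depth, with medians of 18452 UMIs and 3822.5 genes in PBS and 19622 UMIs and 3767 genes in 6C5. Summed over the members, 4882774 UMIs in PBS and 2201369 in 6C5 stood behind the levels below. The libraries shared 47 kept barcodes, none of them a member. RNA free in the droplets, estimated from barcodes with 10 to 100 UMIs and scaled by melanoma genes, came to 1.09% of the members' UMIs in PBS and 0.882% in 6C5.

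cDC1 made up a smaller share of the sorted cells in the 6C5 library. They were 5.41% of kept barcodes in PBS (95% exact Clopper-Pearson interval 4.78 to 6.10) and 1.80% in 6C5 (1.48 to 2.17), which gives a ratio of 0.333 (0.267 to 0.416). Within dendritic cells of 3 kinds (cDC1, cDC2 and mature), which leaves out the numbers of other sorted cells, they were 252 of 533 in PBS (47.3%) and 109 of 296 in 6C5 (36.8%), giving a ratio of 0.779 (0.654 to 0.927). cDC2, taken here by Cd209a and Mgl2, were 164 cells in PBS and 48 in 6C5, with a ratio of 0.225 (0.164 to 0.310) per kept barcode. Mature dendritic cells, taken by Fscn1 and Ccr7, were 117 and 139, a ratio of 0.915 (0.718 to 1.17) per kept barcode and 2.14 (1.75 to 2.61) within the 3 kinds. Both conventional classes were thus the smaller ones in 6C5, while the interval of the mature class's share of all kept barcodes included 1. With a minimum of 1000 or 4000 UMIs per kept barcode, the cDC1 ratio was 0.291 and 0.394, and with the rule applied after every barcode was thinned to 2000 UMIs it was 0.481 (0.325 to 0.713). The part of the CD45 sort was not tested.

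**Figure D1:**
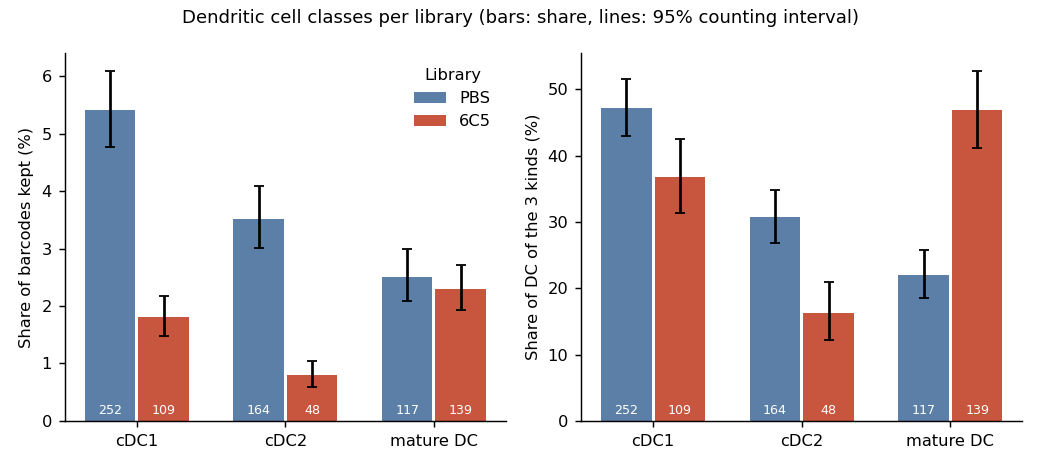
Share of kept barcodes (left) and of dendritic cells of the 3 kinds (right) taken by cDC1, cDC2 and mature dendritic cells in the PBS and 6C5 libraries, in percent. Bars are shares of 1 library each, lines are 95% counting intervals and the numbers inside the bars are cells; cDC1 were 5.41% and 1.80% of kept barcodes and 47.3% and 36.8% of the 3 kinds.

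The edge of the rule held few cells. With 2 UMIs of Xcr1 and Clec9a, just inside, stood 19 members in PBS and 9 in 6C5, and with 1 UMI, just outside, 33 and 11 barcodes that passed every other term. Member medians were 8 and 11 UMIs of Xcr1 and Clec9a and 21.5 and 18 of Naaa. The limit on Fscn1 and Ccr7 alone kept out 11 barcodes in PBS and 17 in 6C5, and the C1q limit alone 49 and 13. Of those kept out by C1q, 4 and 6 had 0.4 to 0.8% of their UMIs in the 3 genes, and 5 and 3 members had 0.2 to 0.4%.

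The members expressed the cDC1 programme and lacked the defining genes of lymphocytes. Levels here are counts per 1000000 UMIs (CPM) summed over the members of a library. Xcr1 (chromosome 9, 123852315 to 123862029, mouse build GRCm38) was at 230 CPM under PBS and 257 under 6C5, Clec9a (chromosome 6, 129408862 to 129424763) at 324 and 372, and the lysosomal amidase Naaa at 1276 and 978 CPM. Itgae, the CD103 integrin chain, was at 236 and 191 CPM, and Wdfy4, needed for cross-presentation of cell-borne antigen, at 747 and 650 CPM. In cDC2, Itgae was at 4.61 and 11.2 CPM and Wdfy4 at 117 and 137. Tlr3, a sensor of double-stranded RNA that the rule did not use, was at 101 and 93.6 CPM in cDC1 against 1.84 and 4.78 in cDC2. Flt3, the receptor for the dendritic cell growth factor, was at 155 and 146 CPM and Zbtb46, a factor of conventional dendritic cells, at 111 and 105. Each of these genes lay within 1.5-fold between the libraries, with Naaa (ratio 0.767, 0.730 to 0.805) and Itgae (0.811, 0.723 to 0.907) lower in 6C5. The 25 cDC1 markers outside the rule summed to 7403 CPM under PBS and 6321 under 6C5 in cDC1, against 827 and 1068 in cDC2 and 1972 and 1865 in mature dendritic cells.

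Outside the genes of the rule, those with the highest ratio of cDC1 over cDC2 level in the lower of both libraries, as a description, were Fcrla, Plpp1, Cadm1, Cxcr3, Agpat3, Gpr33, Rtl8c, Laptm4b, Nck2 and Serpinb6b. Cadm1, an adhesion molecule that binds Crtam on T cells, was at 188 CPM under PBS and 214 under 6C5 against 4.61 and 4.78 in cDC2. C1q macrophages had Cadm1 at 142 and 41.7 CPM. Gpr33, an orphan receptor, was at 42.2 and 44.1 CPM against 0.921 and 1.59. Fcrla, an Fc receptor-like protein, was at 55.3 and 80.4 CPM against 0.461 and 1.59, the cDC2 values resting on 1 UMI in each library. B cells share Fcrla: 64.8% of them in PBS and 59.4% in 6C5 had a UMI, against 42.5% and 47.7% of the deeper cDC1 members. Serpinb6b, a serine protease inhibitor, differed between the libraries within cDC1, at 40.8 CPM under PBS and 95.4 under 6C5 (ratio 2.34, 1.92 to 2.86). It was higher in mature dendritic cells, at 877 and 760 CPM.

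Markers of other cell types were present at low to moderate levels, and those of macrophages, among others, moved with the group. Ms4a1 of B cells was at 0 UMIs in both libraries. The summed level of T and NK markers outside the rule was 3.69 CPM under PBS and 2.73 under 6C5, and that of B cell markers 2.25 and 1.36 CPM. A set of 5 macrophage markers outside the rule, among them Adgre1, Apoe and Ms4a7, summed to 155 CPM under PBS and 204 under 6C5, and monocyte markers (Ly6c2, Ccr2, Vcan and Chil3) to 270 and 356 CPM. cDC2 markers summed to 128 and 131 CPM, neutrophil markers to 73.9 and 77.7 CPM and melanoma markers to 54.7 and 22.7 CPM. At least 3 melanoma UMIs were found in 3 members in PBS and 4 in 6C5, and at least 10 in 1 and 0. Much of the PBS melanoma sum thus lay in few members. Plasmacytoid dendritic cell markers outside the rule (Ccr9, Bst2 and Tcf4) had the highest sum, 381 CPM under PBS and 545 under 6C5, and 27.4% and 47.7% of members had at least 10 of their UMIs. Bst2, which type I interferon also induces, held 349 and 520 CPM of it, while Tcf4 was at 28.5 and 22.3 CPM. At least 3 UMIs of the 5 macrophage markers were found in 33 members in PBS (13.1%, 9.19 to 17.9) and 18 in 6C5 (16.5%, 10.1 to 24.8). These members had 20026 UMIs at the median in PBS and 25380.5 in 6C5, against 18154 and 18370 in the others. No doublet caller was run. Results below are therefore also given without these 51 members, and what part their RNA had in each result was not tested beyond that.

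Between the libraries, genes were compared as the ratio of 6C5 over PBS level in the members, and called higher or lower at 1.5-fold. Of 8144 genes with at least 50 UMIs over both libraries, 398 were higher (4.89%) and 689 lower (8.46%), with a median log2 ratio of -0.07. Without the members that carried macrophage markers, 264 of 7567 genes were higher (3.49%) and 641 lower (8.47%). Counts of list members below are read against these shares. The lists were chosen with earlier results of these data known, so their counts are not independent evidence of a direction.

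cDC1 identity genes had a slightly lower median in 6C5, while the count of genes called lower was near that of all genes. Of 23 measured cDC1 markers outside the rule, 0 were called higher and 2 lower, against 4.89% and 8.46% of all genes. The median log2 ratio was -0.28, against -0.07 for all genes. It was -0.0287 in the 37 PBS and 10 6C5 members with fewer than 3 UMIs of G2 and M phase genes. The 2 lower markers were Notch4, a Notch receptor, at 12.9 CPM under PBS and 6.36 under 6C5, and the sorting nexin Snx22 at 53.9 and 34.1 CPM. Irf8, the factor that specifies the lineage, was at 1650 CPM under PBS and 1118 under 6C5 (ratio 0.678, 0.647 to 0.709), just short of the fold. Its log2 ratio of -0.56 stayed between -0.58 and -0.49 under all alternatives run. In cDC2, where Irf8 is low, it was at 67.3 and 127 CPM (log2 ratio 0.92). Batf3, its partner, was at 152 and 154 CPM (ratio 1.01, 0.889 to 1.15). Id2, which restrains lymphoid and plasmacytoid fate, was at 762 and 531 CPM (log2 ratio -0.52, and 0.20 in the 37 PBS and 10 6C5 members with fewer than 3 UMIs of G2 and M phase genes). Per member, the marker list took a median of 0.732% of UMIs in PBS (interquartile range 0.599 to 0.894) and 0.635% in 6C5 (0.518 to 0.719), so the distributions overlapped widely.

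Among 26 transcription factors of dendritic cells, 1 was called higher and 1 lower (median log2 ratio -0.14). Nfkb2, the non-canonical NF-kB subunit, was at 38.7 CPM under PBS and 59.5 under 6C5, and Bach2, a repressor that holds back effector programmes, at 34 and 22.3 CPM. Zeb2, a factor of cDC2 and myeloid fate, was at 45.5 and 65.4 CPM, short of the fold. With the macrophage-marker members left out 2 were higher and 0 lower: Zeb2 passed the fold (ratio 1.55) and Bach2 no longer did (0.680). Of 26 measured chemokine and growth factor receptors 3 were higher and 3 lower (median log2 ratio 0.14). Lower were Ccr2, which guides cells out of blood, at 198 CPM under PBS and 127 under 6C5, Gpr183, an oxysterol receptor that positions dendritic cells in lymphoid tissue, at 93.4 and 52.7 CPM, and Cxcr4 at 20.1 and 10.4 CPM. Higher were the costimulatory receptor Cd40, the common gamma chain Il2rg at 21.3 and 37.7 CPM and Ccr1 at 9.63 and 16.8 CPM. Leaving out the members with macrophage markers, 3 of 23 receptors were lower, with log2 ratios of -0.61, -0.85 and -1.08, and 1 was higher, Cd40, while Il2rg was just short (0.58) and Ccr1 was under the UMI minimum. Cxcr4 rested on 98 and 23 UMIs and Ccr1 on 47 and 37.

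MHC class I genes were somewhat higher in 6C5, and class II genes were not. Of 23 class I genes, 3 were called higher and 0 lower, with a median log2 ratio of 0.17. H2-K1, a classical class I heavy chain, was at 1152 CPM under PBS and 1764 under 6C5 (ratio 1.53, 1.47 to 1.6). Nlrc5, the transactivator of class I genes, was at 31.1 and 49.5 CPM (ratio 1.59, 1.23 to 2.05). H2-Q7 was at 137 and 276 CPM (ratio 2.01, 1.80 to 2.25), with the reservation that H2-Q genes are near-identical copies between which reads can be split. When members with macrophage markers were left out, 2 of 23 were higher (median log2 ratio 0.12), and H2-K1 was short of the fold (ratio 1.44). Per member, class I genes took a median of 1.20% of UMIs in PBS and 1.43% in 6C5, and 1.19% and 1.42% without members carrying macrophage markers. cDC2 gave the same list median (0.17, 3 of 22 higher against 6.51% of all its genes), and mature dendritic cells 0.01 (0 of 23 higher against 12.8%). Of 13 class II genes, 0 were higher and 1 lower (median log2 ratio -0.01): March1, the ligase that removes class II from the surface, at 123 CPM under PBS and 75.9 under 6C5. Ciita, the class II transactivator, was at 105 and 79.0 CPM and H2-Ab1 at 8715 and 8015 CPM. In mature dendritic cells 7 of 12 class II genes were lower, against 5.55% of all its genes, with a median of -0.65. In the 37 PBS and 10 6C5 members with fewer than 3 UMIs of G2 and M phase genes, the log2 ratios of H2-K1 and March1 were -0.0815 and 0.22, the opposite directions. Cross-presentation and uptake genes numbered 19, of which 1 was called higher, the NADPH oxidase subunit Cybb at 25.2 and 38.2 CPM, and none was called without members carrying macrophage markers.

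Costimulatory genes leaned higher, though the most abundant gene of the list, Cd83, was within 1.5-fold. Cd83 held 43.8% of the list's UMIs under PBS and 37.2% under 6C5. The list summed to 2285 and 2748 CPM with Cd83, and to 1284 and 1724 CPM without it. Of 13 measured genes of costimulation and adhesion, 3 were higher and 0 lower (median log2 ratio 0.30), and the same numbers held without members carrying macrophage markers (median 0.34). Tnfsf9, the 4-1BB ligand that costimulates CD8 T cells, was at 89.3 CPM under PBS and 218 under 6C5 (ratio 2.44, 2.14 to 2.79). The 5 highest members held 47.0% of its UMIs in PBS and 51.0% in 6C5, so its level rests on a minority of cells. Cd40, the receptor for T cell help, was at 36 and 75.4 CPM (ratio 2.09, 1.68 to 2.60). Icam1, the ligand of LFA-1, was at 97.1 and 177 CPM (ratio 1.82, 1.59 to 2.09). The B7 ligands were closer: Cd80 was at 60.0 and 77.7 CPM (ratio 1.29, 1.07 to 1.57) and Cd86 at 292 and 353 CPM (ratio 1.21, 1.11 to 1.32).

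UMIs of Cd40 were found in 60 of 252 members in PBS (23.8%) and 45 of 109 in 6C5 (41.3%). After every member was thinned to 2000 UMIs, the shares were 3.57% (1.65 to 6.67) and 13.8% (7.91 to 21.7). B cells, which also carry Cd40, had it in 9.86% and 8.63% after the same thinning. For Tnfsf9 the thinned shares of members were 12.3% and 21.1%, with intervals that overlapped (8.51 to 17.0 and 13.9 to 30.0).

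Checkpoint ligands and inhibitory receptors were mixed, with 2 of 13 higher and 1 lower. Cd274, which encodes PD-L1, was at 76.8 CPM under PBS and 108 under 6C5 (ratio 1.40, 1.19 to 1.65), short of the fold. Its log2 ratio of 0.49 was -2.03 in the members with fewer than 3 G2 and M UMIs. Cd300a, an inhibitory receptor for phospholipids of dying cells, was at 51.4 and 17.3 CPM (ratio 0.336, 0.232 to 0.474). Havcr2, which encodes TIM-3, was at 115 and 119 CPM (ratio 1.03, 0.888 to 1.20). Pdcd1 was higher, at 8.19 and 15.9 CPM on 40 and 35 UMIs. Lilrb4a was at 67.6 and 119 CPM but at 38.0 and 34.4 CPM without members carrying macrophage markers, so its call rests on those members. Among 18 pattern recognition genes, 3 were higher: Nlrp3, the inflammasome sensor, at 51.4 and 101 CPM, Tlr13 at 11.9 and 22.7 CPM, and Ddx58, which encodes the RNA sensor RIG-I, at 7.78 and 12.7 CPM. Without those members, 1 of 16 was higher, and the log2 ratio of Nlrp3 was 0.74.

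Cytokine genes were higher in 6C5 mostly through a minority of members. Of 13 measured cytokines, 6 were higher and 1 lower (median log2 ratio 0.51), and 2 of 10 higher and 2 lower (0.33) without members carrying macrophage markers. Il12b, the p40 subunit of IL-12, was at 3.69 CPM in PBS (18 UMIs) and 46.3 in 6C5 (102 UMIs), but 65 of the 102 UMIs were in 1 member. It was seen in 11 of 252 members in PBS and 11 of 109 in 6C5. Il1rn, the interleukin 1 receptor antagonist, was at 41.2 and 167 CPM (ratio 4.06, 3.41 to 4.85), and at 8.72 and 32.1 CPM without members carrying macrophage markers. Tnf was at 151 and 279 CPM (ratio 1.85, 1.66 to 2.06), and at 110 and 155 CPM without them. Il15, a survival factor for CD8 T and NK cells, was at 14.7 and 27.3 CPM (ratio 1.85, 1.29 to 2.64), with a log2 ratio of 0.89, and of 0.38 without them. Il1a was at 10.9 and 28.6 CPM, and at 3.39 and 3.44 without them. Il10 was at 4.51 and 15 CPM, with 15 of 22 PBS UMIs and 21 of 33 6C5 UMIs in 1 member each. Flt3l, the growth factor that Flt3 binds, was the lower gene, at 10.7 and 5.0 CPM on 52 and 11 UMIs.

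Chemokines showed large differences, with the highest ratios in the neutrophil attractants Cxcl3 and Cxcl2, followed by Ccl8, Ccl9, Ccl12 and the neutrophil attractant Cxcl1. The most abundant chemokine, Ccl4, was within 1.5-fold and held 52.9% of the list's UMIs in PBS and 32.3% in 6C5. The list summed to 3202 and 5460 CPM with Ccl4, and to 1508 and 3699 CPM without it. Of 17 measured chemokines 9 were higher and 0 lower (median log2 ratio 0.60). With the macrophage-marker members left out, 2 of 13 were higher and 2 lower (0.16), so most of these calls rest on those members. The median was -0.36 in the 37 and 10 members with fewer than 3 UMIs of G2 and M phase genes. Per member, chemokine genes took a median of 0.137% of UMIs in PBS and 0.177% in 6C5. In members with macrophage markers the medians were 0.330% and 1.75%, and in the others 0.123% and 0.121%.

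The promoters of Cxcl1, Cxcl2 and Cxcl3 are shown because all 3 hold a match to the NF-kB site core GGGANTTTC, in capitals (RefSeq, mouse build GRCm38.p6, the 120 bases before the annotated start). The windows are chr5:90891125-90891244 for Cxcl1, chr5:90903779-90903898 for Cxcl2 and chr5:90785981-90786100 for Cxcl3, all on the plus strand.
Cxcl1: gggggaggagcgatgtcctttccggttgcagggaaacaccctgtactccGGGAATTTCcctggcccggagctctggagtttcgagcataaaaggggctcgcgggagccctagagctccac
Cxcl2: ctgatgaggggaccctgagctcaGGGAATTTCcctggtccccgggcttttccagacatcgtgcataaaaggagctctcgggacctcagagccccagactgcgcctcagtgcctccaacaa
Cxcl3: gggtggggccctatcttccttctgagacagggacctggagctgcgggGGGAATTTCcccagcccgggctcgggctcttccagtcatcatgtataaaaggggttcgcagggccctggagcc
The match began 71, 97 and 73 bases before the start. Searched on both strands of the 250 bases upstream, GGGANTTTC was in 1.11% of the 27025 genes with a promoter in the table, in 4 of the 12 measured chemokine genes there (Cxcl1, Cxcl2, Cxcl3 and Cxcl9) and in 2 of 15 genes of the NF-kB list (Nfkb2 and Nfkbia). A match is a description of these letters and not of binding.

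Cxcl2 was at 333 CPM under PBS and 1708 under 6C5 (ratio 5.13, 4.84 to 5.44), with 350 of 1627 PBS UMIs and 491 of 3760 6C5 UMIs in 1 member each. Without members carrying macrophage markers it was at 82.1 and 274 CPM (ratio 3.34). Cxcl3 was at 12.3 and 213 CPM (ratio 17.3, 13.2 to 23) on 60 and 468 UMIs, 46 of the 60 in 1 member. It was seen in 8 of 252 members in PBS and 23 of 109 in 6C5. Cxcl1 was at 39.1 and 101 CPM (ratio 2.58, 2.12 to 3.14), seen in 6 and 15 members, with 99.5% and 92.8% of its UMIs in 5 members of each library. Cxcl1 was at 2.18 and 4.58 CPM, and Cxcl3 at 2.67 and 48.1 CPM, without members carrying macrophage markers. Free RNA carried these genes too, with Cxcl2 at 2626 CPM and 6636 CPM of the free RNA of PBS and 6C5, and B cells had a UMI of Cxcl2 in 34.7% and 52.3% of cells, at a median depth of 2879 and 2823 UMIs. The share of members with a UMI of Cxcl2, 37.7% and 64.2%, was 10.7% and 28.4% after thinning to 2000 UMIs, below the 24.9% and 38.1% of B cells thinned alike. Members were deeper than B cells, at medians of 18452 and 19622 UMIs, so thinning also takes away more of a member's free RNA. The comparison therefore cannot tell whether a single UMI of Cxcl2 in a member is at background. Free RNA was estimated at 1.09% of the members' UMIs in PBS and 0.882% in 6C5. At the members' depths, that is enough to place a UMI of Cxcl2 in many members of both libraries. The shares of 37.7% and 64.2% are thus not read as shares of members that express Cxcl2.

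Of the T cell attractants, Cxcl9 was at 193 CPM under PBS and 209 under 6C5 (ratio 1.09, 0.971 to 1.22), an interval that includes 1. Its UMIs lay in more members in 6C5, 47 of 109 against 64 of 252, and after thinning in 20.2% (13.1 to 28.9) against 11.9% (8.18 to 16.6), where B cells had 1.52% and 2.35%. Cxcl10 was at 170 and 287 CPM (ratio 1.68, 1.52 to 1.87), and at 103 and 136 CPM without members carrying macrophage markers, short of the fold. Ccl5 was at 16.0 and 20.9 CPM (ratio 1.31, 0.888 to 1.91), with a log2 ratio of 0.39, and of -0.63 without those members. The log2 ratios of Ccl8 and Ccl9, 2.21 and 1.57, were -0.34 and -0.57 without them. Ccl12 was at 25.4 and 70.4 CPM (ratio 2.77, 2.18 to 3.54), and at 2.91 and 6.87 CPM without them. In C1q macrophages 15 of 17 chemokines were higher, against 7.82% of all genes there, with a median log2 ratio of 1.16.

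Genes that type I interferon induces were higher under 6C5. Of 43 measured genes 24 were higher and 0 lower (median log2 ratio 0.62). With the macrophage-marker members left out, 12 of 39 were higher and 0 lower (0.31). The list median lay between 0.31 and 0.69 under all alternatives run. The other classes had like medians. They were 0.66 in cDC2 (23 of 44 higher, against 6.51% of all genes there) and 0.72 in mature dendritic cells (27 of 44, against 12.8%). In C1q macrophages the median was 0.63 (25 of 47, against 7.82%).

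**Figure D2:**
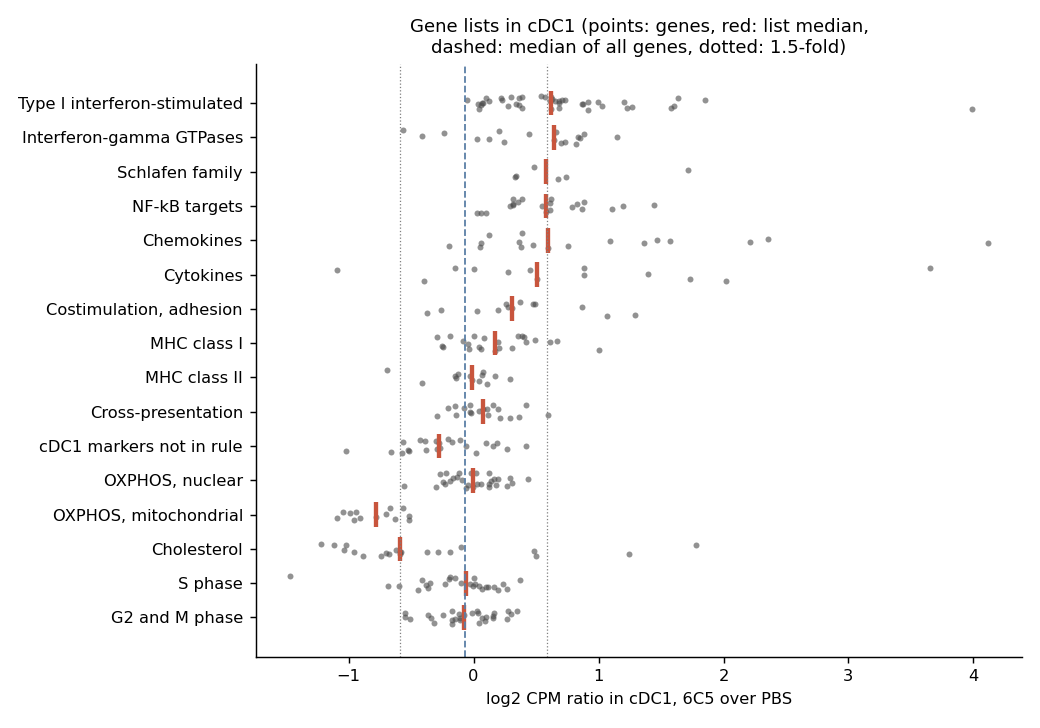
Log2 ratio of 6C5 over PBS level in cDC1 for each measured gene of 16 lists (grey points), with the list median (red), the median of all genes (dashed, -0.07) and the 1.5-fold limits (dotted). Interferon-stimulated genes, with a median of 0.62, have 24 of 43 genes beyond the upper limit and 0 beyond the lower, and the mitochondrially encoded and cholesterol genes have medians of -0.78 and -0.59.

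The promoters of Isg15, Rsad2 and Ifit3 are shown because they hold the interferon response element core GAAANNGAA on one or the other strand, in capitals (RefSeq, GRCm38.p6). They are chr4:156200819-156200938 on the minus strand for Isg15, chr12:26456453-26456612 on the minus strand for Rsad2 and chr19:34583349-34583528 on the plus strand for Ifit3, each ending at the base before the annotated start.
Isg15: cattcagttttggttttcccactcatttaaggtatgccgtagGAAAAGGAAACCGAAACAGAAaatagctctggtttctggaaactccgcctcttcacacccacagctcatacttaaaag
Rsad2: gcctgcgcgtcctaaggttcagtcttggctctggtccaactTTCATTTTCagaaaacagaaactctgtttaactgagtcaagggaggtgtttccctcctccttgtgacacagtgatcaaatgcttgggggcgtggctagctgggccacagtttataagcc
Ifit3: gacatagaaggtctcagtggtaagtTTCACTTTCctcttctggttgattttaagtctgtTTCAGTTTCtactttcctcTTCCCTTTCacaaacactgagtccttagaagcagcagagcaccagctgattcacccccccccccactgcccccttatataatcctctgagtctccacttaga
Isg15 held 3 overlapping matches that began 78, 72 and 66 bases before the start, Rsad2 held 1 at 119 and Ifit3 held 3 at 155, 121 and 102. On both strands of the 250 bases upstream, GAAANNGAA was in 8.18% of the 27025 genes with a promoter in the table, in 17 of the 35 measured interferon-stimulated genes there (48.6%) and in 10 of 14 genes of the interferon-gamma list (71.4%). Among the 18 interferon-stimulated genes that were also called higher, 8 held it (44.4%), about the share of the list.

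Isg15, a ubiquitin-like modifier, was at 305 CPM under PBS and 734 under 6C5 (ratio 2.40, 2.24 to 2.58), and at 263 and 439 CPM (ratio 1.67) without members carrying macrophage markers. It was seen in 186 of 252 members in PBS and 93 of 109 in 6C5, and after thinning in 30.2% (24.6 to 36.2) and 49.5% (39.8 to 59.3), where B cells had 10.3% and 18.8%. Rsad2, the antiviral enzyme viperin, was at 53.5 and 160 CPM (ratio 2.99, 2.54 to 3.52), with 122 of 261 PBS UMIs in 1 member. Ifit3 was at 19.3 and 69.5 CPM (ratio 3.61, 2.77 to 4.72) and Ifit1 at 11.7 and 36.3 CPM (ratio 3.11, 2.19 to 4.45), both inhibitors of viral translation that have near copies in the genome. Ifit1bl1 was at 1.43 and 22.7 CPM on 7 and 50 UMIs, and Rtp4 at 14.3 and 43.6 CPM. Per member, the list took a median of 0.541% of UMIs in PBS (interquartile range 0.370 to 0.779) and 0.674% in 6C5 (0.428 to 1.09). Of the 109 members in 6C5, 68 (62.4%) stood above the PBS median, so the libraries overlapped over most of their range. Leaving out the members with macrophage markers, the medians were 0.516% and 0.593%, and in those members 0.662% and 1.29%.

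Genes of the interferon-gamma response were higher by the count of genes but not by their sum. Of 17 measured genes 9 were higher and 0 lower (median log2 ratio 0.64). Without members carrying macrophage markers 2 of 16 were higher (0.30). The summed level was 2481 CPM under PBS and 2126 under 6C5, because Irf8 held 66.5% and 52.6% of the list's UMIs, and was 831 and 1008 CPM without Irf8. The guanylate-binding proteins Gbp2, Gbp3 and Gbp7, which attack intracellular pathogens, were at 25.4, 8.60 and 5.53 CPM in PBS and 45.4, 15.9 and 12.3 in 6C5. Tgtp1 was at 20.9 and 37.7 CPM and Iigp1, another immunity-related GTPase, at 25.2 and 44.5 CPM. In members with fewer than 3 G2 and M UMIs the list median was -0.47, and with at least 4 UMIs of Xcr1 and Clec9a the log2 ratio of Gbp2 was -0.0336. Several of these genes have near-identical copies, so the split of UMIs between copies is uncertain. The list median was 0.81 in cDC2 (9 of 14 higher, against 6.51% of all genes there), 0.27 in mature dendritic cells and 0.10 in C1q macrophages. These differences between classes were not tested. Of 6 measured Schlafen genes 3 were higher: Slfn4 at 10.7 and 35.0 CPM, Slfn1 at 46.9 and 78.1 CPM and Slfn8 at 13.9 and 22.3 CPM. Only Slfn1 of 5 (ratio 1.70) was higher without members carrying macrophage markers, and the list median went from 0.58 to 0.21.

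NF-kB targets and regulators were higher in cDC1, while their list median was near 0 in both other dendritic cell classes. Of 21 measured genes 10 were higher and 0 lower (median log2 ratio 0.58), and 7 higher and 1 lower (0.43) without members carrying macrophage markers. The median was -0.016 in the 37 and 10 members with fewer than 3 G2 and M UMIs. In cDC2 2 of 21 were higher and 1 lower (median 0.02), against 6.51% and 11.8% of all genes there. In mature dendritic cells 0 of 21 were higher (median -0.07), against 12.8% of all genes, and in C1q macrophages 10 of 21 (0.52), against 7.82%. The difference between classes was not tested. Tnfaip3, the feedback inhibitor A20, was at 99.5 CPM under PBS and 177 under 6C5 (ratio 1.78, 1.55 to 2.04). Tnip3, which binds A20, was at 25.4 and 69.0 CPM (ratio 2.72, 2.13 to 3.48). Cflar, an inhibitor of death receptor signalling, was at 34.2 and 73.6 CPM (ratio 2.15, 1.72 to 2.69). Tnfaip2 was at 13.7 and 31.3 CPM, but its log2 ratio of 1.19 was 0.12 without members carrying macrophage markers. In cDC2, which start higher, Tnfaip3 was at 368 and 397 CPM and Tnip3 at 369 and 301. In cDC1, Cd83 held 30.7% of this list's UMIs in PBS and 23.3% in 6C5, and was within 1.5-fold. Per member, the list took a median of 0.240% of UMIs in PBS (interquartile range 0.157 to 0.379) and 0.324% in 6C5 (0.187 to 0.612), and 69 of 109 members in 6C5 (63.3%) stood above the PBS median.

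**Figure D3:**
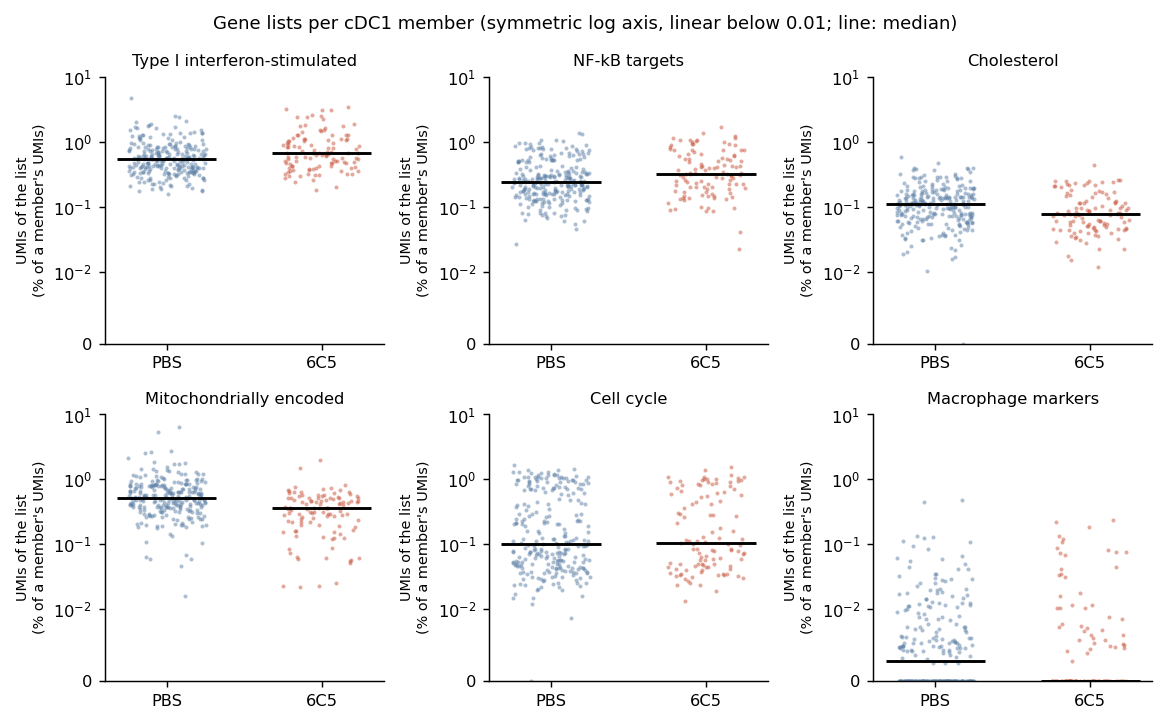
Percent of each cDC1 member's UMIs taken by 6 gene lists, on a symmetric log axis that is linear below 0.01, with 252 PBS and 109 6C5 members as points and the median as a line. Medians for interferon-stimulated genes (0.541 and 0.674) and NF-kB targets (0.240 and 0.324) are higher in 6C5, those for cholesterol and mitochondrially encoded genes are lower, and the points overlap in every panel.

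Maturation genes that dendritic cell subsets share had 6 of 18 higher and 1 lower (median log2 ratio 0.44), and 4 higher and 1 lower (0.36) without members carrying macrophage markers. Beside Cd40, Il15, Traf1 and Serpinb6b, Marcksl1 was at 83.6 CPM under PBS and 186 under 6C5 (ratio 2.22, 1.93 to 2.56). Traf1, an adaptor of TNF receptors, was at 143 and 219 CPM, and short of the fold without those members (ratio 1.42). Spn, which encodes CD43, was lower at 13.5 and 7.27 CPM on 66 and 16 UMIs. Cd83, within 1.5-fold, held 50.4% of this list's UMIs in PBS and 41.9% in 6C5. The list shares Cd83 and Cd40 with that of costimulation, so their results are not separate. The defining genes of the mature state itself were kept low by the rule: Fscn1 had 4 UMIs in each library and Ccr7 12 and 6.

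Genes of cholesterol synthesis and handling, which are known to change during homeostatic maturation, were lower in 6C5. Of 21 measured genes 12 were lower and 2 higher (median log2 ratio -0.59), and 11 of 17 lower and 1 higher (-0.74) without members carrying macrophage markers. The median lay between -0.74 and -0.33 under all alternatives run. Insig1, which retains the sterol sensor in the endoplasmic reticulum, was at 42.8 CPM under PBS and 20.9 under 6C5 (ratio 0.488, 0.347 to 0.675). Fdft1, which makes squalene, was at 45.3 and 22.3 CPM (ratio 0.492, 0.353 to 0.673), and the desaturase Scd2 at 30.5 and 14.1 CPM. The 2 higher genes work in the opposite direction, cholesterol export: Abca1 was at 4.51 and 15.4 CPM on 22 and 34 UMIs, and Abcg1 at 5.94 and 14.1 CPM on 29 and 31 UMIs. Per member, the list took a median of 0.110% of UMIs in PBS (interquartile range 0.0692 to 0.160) and 0.0777% in 6C5 (0.0470 to 0.138), and 36 of 109 members in 6C5 (33.0%) stood above the PBS median. The other classes went the same way, with medians of -0.27 in cDC2, -0.53 in mature dendritic cells and -0.67 in C1q macrophages.

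Transcripts of the mitochondrial genome were lower in 6C5 and those of the nuclear subunits of the same complexes were not. Of 13 mitochondrially encoded genes 10 were lower and 0 higher (median log2 ratio -0.78), with the same counts and a median of -0.79 without members carrying macrophage markers. Of 29 nuclear genes of oxidative phosphorylation none was called in either direction (median -0.01). The cytochrome oxidase subunit mt-Co3 was at 1001 CPM under PBS and 504 under 6C5 (ratio 0.504, 0.471 to 0.538). The ATP synthase subunit mt-Atp6 was at 741 and 382 CPM (ratio 0.515, 0.477 to 0.556) and the complex I subunit mt-Nd1 at 312 and 166 CPM (ratio 0.534, 0.475 to 0.599). Per member the median was 0.523% of UMIs in PBS (interquartile range 0.368 to 0.785) and 0.356% in 6C5 (0.194 to 0.512). All kept barcodes moved likewise, with medians of 0.715% and 0.412%, and so did the list in cDC2 (-0.46), mature dendritic cells (-0.88) and C1q macrophages (-1.16). The mitochondrial share is also a measure of cell quality in such libraries, and its part here was not tested.

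Cell cycle genes were at like levels in both libraries, and the intervals of the share of members past a count of cell cycle UMIs overlapped. After thinning to 2000 UMIs, 114 of 252 members in PBS (45.2%, 39.0 to 51.6) and 57 of 109 in 6C5 (52.3%, 42.5 to 61.9) had at least 3 UMIs of the S, G2 and M phase lists, against 95.6% and 99.1% before thinning. Per member these lists took a median of 0.102% of UMIs in PBS and 0.104% in 6C5, which at 2000 UMIs is near that count. The count therefore does not single out cycling cells. Of 29 G2 and M genes none was called (median log2 ratio -0.08). Of 26 S phase genes 0 were higher and 3 lower (-0.06): Ung, Mcm2 and Cdca7, with 8, 50 and 26 UMIs in 6C5, and none of 25 was called without members carrying macrophage markers. The thinned share was 32.3% and 45.8% in cDC2 and 26.5% and 15.1% in mature dendritic cells. The G2 and M list median was 1.11 in mature dendritic cells, from summed levels of 937 and 1623 CPM. Their median per cell was 0.0323% of UMIs in PBS and 0.0275% in 6C5. Melanoma markers summed to 1775 and 2810 CPM in that class, with at least 10 UMIs in 2 and 8 cells. What part melanoma RNA had was not tested. In C1q macrophages all 29 G2 and M genes were lower, against 26.6% of all genes there (median -1.52).

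**Figure D4:**
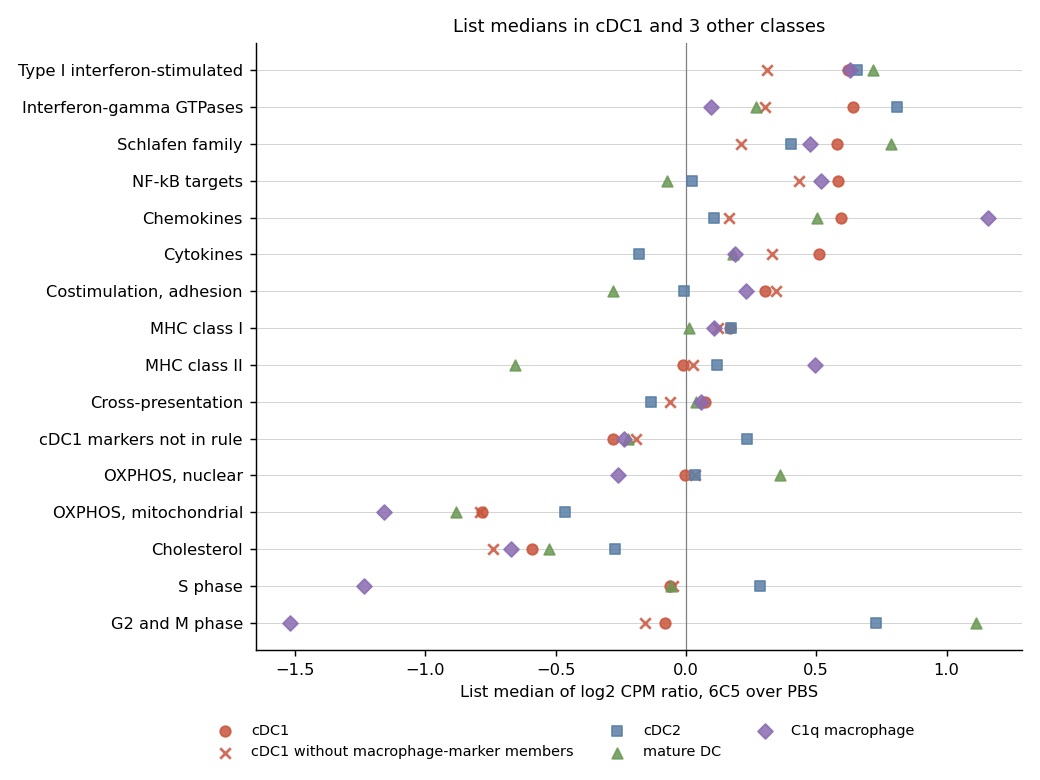
Median log2 ratio of 6C5 over PBS level for the same 16 lists in cDC1, in cDC1 without members carrying macrophage markers, in cDC2, in mature dendritic cells and in C1q macrophages. The interferon-stimulated medians of the 4 classes lie between 0.62 and 0.72. The NF-kB medians of cDC2 (0.02) and mature dendritic cells (-0.07) lie near 0. The G2 and M medians run from -1.52 in C1q macrophages to 1.11 in mature dendritic cells. The value of 1.11 is of summed levels: per mature cell, the median share of these genes was 0.0323% in PBS and 0.0275% in 6C5.

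Axl itself was a low gene in cDC1 and was higher in 6C5. Mouse Axl (chromosome 7, 25757273 to 25788705, minus strand) had 66 UMIs in PBS and 60 in 6C5, or 13.5 and 27.3 CPM (ratio 2.02, 1.40 to 2.90), with at most 6 in any member. Leaving out the members with macrophage markers, it was at 10.4 and 23.5 CPM (ratio 2.25). It was seen in 37 of 252 members in PBS (14.7%) and 35 of 109 in 6C5 (32.1%). B cells, which were far shallower, had it in 2.35% and 4.57% of cells. After thinning the shares of members were 2.38% (0.879 to 5.11) and 10.1% (5.15 to 17.3), where B cells had 1.88% and 1.52%. Thinning takes more from the deeper members, so the thinned shares alone cannot tell whether the PBS share was at background. Axl was at 55.1 CPM of the free RNA in PBS and 31.1 in 6C5. Free RNA was estimated at 1.09% and 0.882% of the members' UMIs. At those shares it holds far less Axl than the 13.5 and 27.3 CPM of the members. C1q macrophages had 140 CPM under PBS and 100 under 6C5, cDC2 43.3 and 78.1 CPM, and mature dendritic cells 40.3 and 29.8 CPM. The order of levels, C1q macrophages first and cDC1 last, held in PBS, and in 6C5 cDC1 and mature dendritic cells were close. The related receptors were nearly absent, with 12 and 1 UMIs of Mertk and 1 and 0 of Tyro3, and the ligand Gas6 had 6 and 0. Of 9 measured genes of this family and of dead-cell uptake 3 were higher: Axl, the endocytic receptor Lrp1 at 10.9 and 25 CPM and the integrin chain Itgav at 34.8 and 71.3 CPM. In the members without macrophage markers 2 of 8 were higher, and Lrp1 was at 1.94 and 4.58 CPM. The phosphatidylserine receptor Timd4 was at 47.1 and 35.0 CPM.

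Stress and metabolic lists moved little. Of 23 genes of hypoxia and glycolysis 4 were higher and 1 lower (median log2 ratio 0.21): the oxidoreductase Ero1l at 26.0 CPM under PBS and 62.7 under 6C5, the lactate exporter Slc16a3 at 32.4 and 70.0 CPM, the mitophagy receptor Bnip3 at 42.0 and 64.5 CPM and Ankrd37 at 10.4 and 15.9 CPM, with Pdk1 lower at 11.7 and 7.27 CPM. Leaving out the members with macrophage markers 2 of 22 were higher, and Slc16a3 (ratio 1.37) and Ankrd37 (1.40) were short of the fold. In mature dendritic cells 18 of 22 of these genes were higher (median 1.00), against 12.8% of all genes there. Their summed level was 8192 CPM under PBS and 15280 under 6C5, but the median per mature cell was 0.434% and 0.458% of UMIs. What part the melanoma RNA in that class had was not tested. Of 17 genes of the unfolded protein response 1 was higher, Creld2 at 92.0 and 149 CPM. Of 24 immediate-early and heat-shock genes Egr2 was lower, at 80.9 and 45.0 CPM, and Hspb1 was called higher, but 100 of its 132 PBS UMIs and 95 of its 177 6C5 UMIs were in 1 member each. Of 22 apoptosis genes Casp4 and Bcl2l1 were higher, at 13.7 and 23.6 CPM and at 31.3 and 47.7 CPM, and Bcl2 was lower, at 12.9 and 8.18 CPM.

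The genes with the highest ratios of all, among those with at least 200 UMIs, were mainly myeloid inflammatory genes carried by few members. They were Slpi (log2 ratio 4.65), Cxcl3, Arg1 (3.36), Hilpda (2.81), Spp1 (2.54), Ctsl (2.45), Acod1 (2.42), Cxcl2, Clec4d (2.30) and Ptgs2 (2.1). Of the 373 UMIs of Slpi in 6C5, 237 were in 1 member, and of the 1198 of Spp1, 390. With the macrophage-marker members left out, Slpi was at 5.33 CPM under PBS and 4.58 under 6C5 and Spp1 at 83.8 and 83.6 CPM, so neither difference remained. Hilpda, a lipid droplet protein, was at 16.2 and 114 CPM with all members and at 6.06 and 36.7 CPM without them, and Acod1, which makes itaconate, at 24.2 and 129 CPM and at 16.7 and 45.8 CPM. Of the list of myeloid inflammatory and suppressive genes 11 of 17 were higher and 1 lower (median log2 ratio 1.17), and 3 of 9 higher (0.44) without those members. In C1q macrophages 17 of 20 were higher (1.97), against 7.82% of all genes there.

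Genes of lipid synthesis were among those with the lowest ratios. Ifitm1, a membrane protein, was at 111 CPM under PBS and 30.9 under 6C5, with 163 of 543 PBS UMIs in 1 member. Selenop, a selenium carrier abundant in resident macrophages, was at 39.7 and 11.8 CPM, with 77 of 194 PBS UMIs in 1 member. Fasn, the fatty acid synthase, was at 40.1 and 16.8 CPM (ratio 0.419, 0.286 to 0.597). Also among the lowest were Cd300a, Unc119b (47.9 and 21.8 CPM), Insig1, Fdft1 and Chsy3 (59.0 and 29.5 CPM). Without members carrying macrophage markers the log2 ratios of Ifitm1 and Fasn were -2.58 and -1.0, so both stayed lower without them.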

How the data were processed

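The authors deposited 1 unfiltered matrix of raw UMI counts per library (32285 genes). The file headers give Cell Ranger 7.1.0 as its source, whereas version 2.1.1 and mm10 stand in the submitters' processing notes. The treatment of intronic reads is not stated in those sources. Per the labels' protocols, tumours were digested with collagenase IV and DNase, cells sorted and libraries made with 10x Chromium v3 reagents.

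Members were found by the stated rule with Python 3.11.15, numpy 2.4.6, scipy 1.17.1 and pandas 2.3.3, and figures drawn with matplotlib 3.10.9. Nothing was clustered and no doublet caller was run. UMIs were summed over members, divided by their total and given as CPM; ratios have exact conditional binomial 95% intervals, shares exact Clopper-Pearson intervals, and share ratios intervals on the log scale. No pseudocount was used, genes needed 50 UMIs over both libraries, and a gene at 0 UMIs was bounded with 3 counts. With 1 library per group no test was made. TMM factors (edgeR 4.0.16, R 4.3.3) were an alternative and shifted log2 ratios by 0.067. The ratio code was tested on simulated data.

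cDC2 had at least 2 UMIs of Cd209a and Mgl2 and 1 of Flt3 and Zbtb46; mature dendritic cells at least 1 each of Fscn1 and Ccr7 and 6 together; C1q macrophages at least 0.4% C1q and 1 UMI of macrophage markers such as Adgre1; B cells at least 3 of Cd79a and Ms4a1; each also had limits on the other classes' genes. The members and gene lists were chosen with earlier results of these data known. Named genes were the rule genes and markers, up to 6 measured genes of each of 28 lists with the largest absolute log2 ratio plus genes with a stated role, the 10 genes at either end of the ratio with 200 UMIs or more (without mitochondrial, ribosomal, haemoglobin, antigen receptor, sex-linked, rule and marker genes), and the 10 with the highest cDC1 over cDC2 level. Promoters come from RefSeq (250 bases before to 50 after each start) and positions from the GENCODE annotation of GRCm38. Some genes that the rule for named genes picks are not reported here.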

Additional observations from a re-analysis of the deposited data

Results flagged for a closer look

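C1qb, a complement subunit that the member rule itself limits, and Ccr1, a chemokine receptor, went in opposite directions in cDC1 and cDC2. The log2 ratio of 6C5 over PBS level of C1qb was 0.893 in cDC1 and -1.321 in cDC2, with 61.6 CPM in PBS and 114 in 6C5 in cDC1, where 85 of 252 UMIs of the 6C5 library were in 1 member. That of Ccr1 was 0.8042 in cDC1 and -0.6312 in cDC2. With 1 library per group these differences were not tested. Without members carrying macrophage markers the log2 ratio of C1qb in cDC1 was 0.16 and that of Ccr1 0.77.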

How the results depend on the processing

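The lower cDC1 share in 6C5 kept its direction under every alternative run: the ratio per kept barcode ran from 0.291 to 0.481, the last with the rule applied after thinning to 2000 UMIs (64 and 40 members), and that within the 3 dendritic cell kinds ran from 0.731 to 0.812. Genes called higher and lower were 628 and 1222 with a minimum of 20 UMIs, 150 and 122 with 200, 189 and 144 with 10 added to CPM, 132 and 133 at 2-fold, 147 and 153 after thinning, and 153 and 222 without members with 3 or more G2 and M UMIs, which left 37 and 10 members. Thinner data and fewer genes tested go with these settings by construction. The G2 and M setting counted UMIs before thinning, a count that grows with depth. By that count 85.3% of members in PBS and 90.8% in 6C5 had 3 or more, so the setting does not single out cycling cells. Below, G2 and M members means all the members it left out. Without members carrying macrophage markers, an alternative chosen after seeing the data, 264 were higher. It moved list medians of cytokines to 0.33, chemokines to 0.16, immediate-early genes to -0.15 and myeloid inflammatory genes to 0.44. Without G2 and M members the medians were -0.36 for chemokines and -0.47 for interferon-gamma genes, both reversed, and -0.0287 for cDC1 markers, 0.25 for transcription factors, -0.0632 for class I, -0.23 for class II, -1.2 for checkpoint genes, -0.016 for NF-kB, -0.0267 for TAM and uptake genes, 0.15 for nuclear oxidative phosphorylation, 0.21 for immediate-early genes and -0.50 for apoptosis. The interferon-gamma median was 0.16 with at least 4 UMIs of Xcr1 and Clec9a, and that of maturation genes 0.87 after thinning. Myeloid inflammatory genes had medians of 1.44 with members weighted equally, 1.79 thinned, 1.64 with 200 UMIs and 1.53 without each gene's highest member, the last also chosen after seeing the data. Of the named genes called higher or lower, 5 reversed: H2-K1 (-0.0815), March1 (0.22) and Lilrb4a (-2.06) without G2 and M members, Lilrb4a (-0.15) and Spp1 (-0.00337) without members carrying macrophage markers, and Gbp2 (-0.0336) with at least 4 UMIs of Xcr1 and Clec9a. Of those not called, 30 crossed 0 under at least 1 alternative, 20 of them without G2 and M members, among them Cd274 (-2.03), Socs3 (-1.61), Id2 (0.20) and Cd44 (-0.12). Depth limits genes near the minimum of 50 UMIs most, where intervals are widest. The cause of these changes was not tested. No paired analysis was possible because each group is 1 library, and no replicate could be left out.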
